A study of Arabidopsis thaliana with 17 samples.

Results

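The response to salicylic acid (SA) was measured in Arabidopsis plants mutated in NPR1, SNI1 and BRCA2A together. The 3 arrays of npr1 sni1 brca2a plants given SA were set against the 3 arrays of the same genotype given water, 6 of the 17 samples of the study, chosen by genotype and treatment alone. The plants were 3 weeks old, grown in soil, and were collected 16 hours after 0.5 mM SA or water. RNA came from material labelled seedling and was read on Affymetrix ATH1 arrays. Every plant of the study, the controls included, carried the npr1 and sni1 mutations. The npr1 sni1 plants (3 arrays with water and 3 with SA under the same conditions), here called the double mutant, are used only where the effect of SA is compared between genotypes. Replicates came from independent biological experiments, as the series design states.

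SA is the hormone that builds up when a plant meets a biotrophic pathogen. It acts largely through NPR1, a co-activator that joins TGA transcription factors at the promoters of defence genes, and npr1 plants fail to induce most of them. SNI1 is a repressor whose loss restores much of the SA response to npr1 plants, and BRCA2A, a mediator of homologous recombination, was found to be needed for that restored response. The comparison asks what SA still does when all 3 are mutated. None of the 3 mutated genes had a probe set that named a single gene here, so their own levels were not analysed.

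Levels are given as log2(intensity + 16). On this scale a 2-fold change of intensity is close to 1 unit for a bright probe set and less for a dim one. Folds given here are those of intensity + 16, so for a dim probe set they understate the change of intensity itself. An effect of SA is the mean of the SA arrays minus that of the water arrays, with its standard error (SE). Adjusted p-values are those of limma, corrected over all 22746 probe sets tested, and genes with an adjusted p below 0.05 are called higher or lower. SA changed 2599 probe sets (11.4 percent), of which 1343 (5.9 percent) were higher and 1256 (5.52 percent) lower. The count was 1382 without the third SA array, 1521 without the first, and 1057 when the 12 arrays of both genotypes shared 1 estimate of the spread, so the background share of 11.4 percent belongs to the fit of 6 arrays. For each of the 2599 the SA arrays lay apart from the water arrays, so a lack of overlap adds nothing to a call. Its share over all probe sets was not counted. Changes were mostly small: the median size was 0.41, and 123 probe sets differed at least 2-fold, 79 of them higher and 44 lower. The median effect over all probe sets was -0.019. Probe sets could be assigned to 13333 loci, of which 631 were higher and 677 lower, and 1535 of these loci have a gene symbol. Probe sets without a listed gene numbered 8730, and 1246 of them were called, up to 2.28 and down to -2.14, so the named genes below are not the whole response.

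The 6 arrays resembled each other. Their median intensities lay between 58.3 and 61.9, and correlations within a group were 0.994 to 0.998. The second water array had 35 and the second SA array 58 probe sets more than 1 log2 unit from both other arrays of its group, and the other 4 arrays had 0. Probe ratios of the 3-prime to the 5-prime end, a sign of RNA quality, overlapped between the groups for GAPDH (-0.50 to -0.19 with water, -0.43 to -0.24 with SA) and actin (1.57 to 2.26 and 1.61 to 2.05). Genes of green tissue were bright, with the antenna gene LHCB4.2 at 12.8 with water, and the 1 root marker measured had an effect of -0.018 and was not called. No flower marker was measured. In whole plants a change in the share of a cell type and a change in RNA per cell cannot be told apart. Of the 135 called genes named below, 89 stayed past the threshold whichever of the 6 arrays was left out. When all 12 arrays shared 1 estimate of the spread, 84 of the 135 did not pass. In that fit the second water array of the double mutant stood apart from its group, with 457 probe sets more than 1 log2 unit from both other arrays against at most 1 for the other 5 arrays of that genotype. Without it 81 of the 84 passed again, all but SEC6, IQD30 and NRPB7.

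The strongest rises among named loci included an auxin-response repressor, a cytokinin-response regulator and a cytochrome P450. AT3G62950, a locus with no symbol in the annotation used, read 6.24, 6.56 and 6.04 on the 3 water arrays and 7.92, 7.99 and 7.90 on the 3 SA arrays. Its SA arrays lay close together and far above the water arrays, an effect of 1.66 ± 0.12 (SE, adjusted p = 0.00064), or 3.16-fold higher. The P450 gene CYP71B23 read 5.83, 5.92 and 5.89 on the 3 water arrays and 7.25, 7.03 and 7.09 on the 3 SA arrays, and rose by 1.25 ± 0.067 (adjusted p = 0.00029). The 15 largest rises lay between 1.22 and 1.66. Of these, IAA29, ARR15 and CYP71B23 have a symbol, and the rest are known here by locus: AT5G12050 (1.54), AT2G16660 (1.52), AT4G17470 (1.47), AT4G16000 (1.43), AT1G35710 (1.37), AT2G30600 (1.36), AT1G72060 (1.31), AT3G04210 (1.28), AT4G11900 (1.24), AT4G18340 (1.22) and AT3G28220 (1.22). Leaving out 1 of the 6 arrays ended the call of AT2G16660 and AT3G28220, with a highest adjusted p of 0.056 to 0.062. In the fit of 12 arrays the adjusted p of AT5G12050, AT4G16000, AT2G30600 and AT1G72060 rose to 0.055 to 0.18.

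The deepest fall was larger than any rise among the named loci. AT2G27420 read 8.88, 8.70 and 9.09 on the 3 water arrays and 6.32, 6.47 and 6.28 on the 3 SA arrays. No other named locus fell as far: the effect was -2.54 ± 0.1 (adjusted p = 0.00011), 5.79-fold lower with SA. Next came AT1G47400, AT1G60590 and AT1G23205, at -1.74, -1.58 and -1.54. The other 11 of the 15 lay between -1.32 and -1.11, and included BHLH101, a regulator of iron uptake, and CHIL, a chalcone isomerase-like protein that raises flavonoid output. The loci without a symbol among them were AT3G48460, AT5G42760, AT5G12110, AT1G06000, AT1G65870, AT3G09440, AT1G25550, AT5G51440 and AT5G05250. The 30 loci were picked among those whose groups did not overlap, which held for every called probe set. The fit of 12 arrays ended the call of AT2G27420, AT1G60590, AT1G23205, AT3G48460, AT5G42760, AT5G12110, AT1G06000, AT1G65870 and AT3G09440 (adjusted p of 0.087 to 0.23).

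Functional groups were read by counting their measured members, each by its brightest probe set, against the 11.4 percent of all probe sets that were called. With 1 probe set per locus, 1308 of 13333 loci were called. Among the 11373 brighter probe sets, fitted alone, 2625 were called, and 92 of 279 group members. Calls were thus more frequent among bright probe sets, and the counts below are not matched for brightness. Groups marked as added were put together after the values had been seen, so their counts describe the genes and support nothing further.

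**Figure D1:**
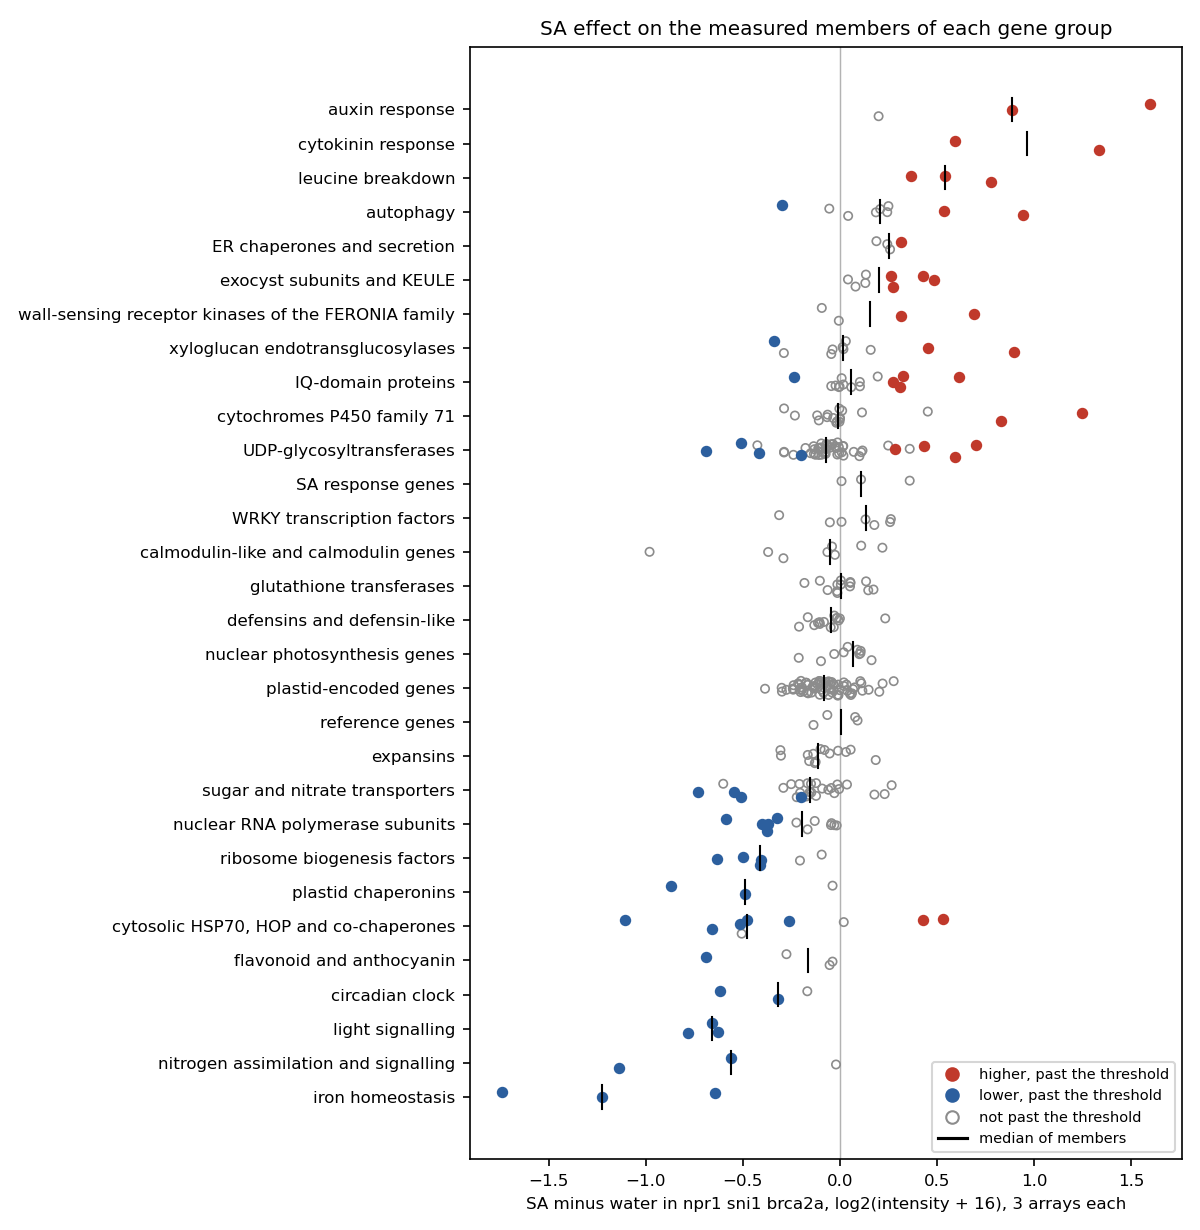
Effect of SA (SA minus water, log2(intensity + 16), horizontal axis) on each measured member of 30 gene groups in npr1 sni1 brca2a, with 3 arrays per treatment. Red and blue points passed the threshold higher and lower, open points did not, and the black bar is the median of the group. Leucine breakdown, auxin and cytokinin genes lie to the right, iron, light and nitrogen genes to the left, and SA response, WRKY, calmodulin-like and plastid-encoded genes hold no call.

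Of the 5 listed auxin- and cytokinin-response genes that were measured, 4 were higher with SA. Of the 17 listed auxin-response genes 3 were measured, and 2 rose (group median 0.89). IAA29 encodes an Aux/IAA protein, a class of short-lived repressors of auxin-induced genes. IAA29 read 5.91, 5.97 and 6.16 on the 3 water arrays and 7.72, 7.24 and 7.88 on the 3 SA arrays. Every SA array was at least 1 unit above every water array, for an effect of 1.60 ± 0.16 (adjusted p = 0.0018), 3.02-fold higher. GH3.3, whose enzyme joins auxin to amino acids and so inactivates it, rose by 0.89 ± 0.22 (adjusted p = 0.047), while WES1, another enzyme of that family, had 0.20 (adjusted p = 0.14). Among all 7 measured Aux/IAA genes, IAA29 was the only one called, and the lowest of the others had -0.17. Both measured cytokinin-response genes rose. They encode type-A response regulators, which cytokinin induces and which dampen its signalling. ARR15 read 6.47, 6.34 and 6.61 on the 3 water arrays and 7.89, 7.92 and 7.62 on the 3 SA arrays. ARR15 rose by 1.34 ± 0.1 (adjusted p = 0.00073). RR16, its relative, rose by 0.59 ± 0.1 (adjusted p = 0.014). The other 4 of 6 measured response regulators did not pass. With 1 of the 6 arrays left out, GH3.3 and RR16 no longer passed in at least 1 case (highest adjusted p of 0.052 to 0.13). Fitted with all 12 arrays, IAA29 and GH3.3 no longer passed, at an adjusted p of 0.16.

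Cell wall genes moved in both directions, with most of the called ones higher. Xyloglucan endotransglucosylases cut and rejoin the xyloglucan chains that tie cellulose fibrils together. Of 10 measured, 2 rose and 1 fell (median 0.017). XTH33 read 5.67, 5.45 and 5.49 on the 3 water arrays and 6.35, 6.72 and 6.23 on the 3 SA arrays. The rise of XTH33 was 0.90 ± 0.13 (adjusted p = 0.0062), that of XTH16 0.46 ± 0.067 (adjusted p = 0.0069), and XTH32 changed by -0.34 ± 0.046 (adjusted p = 0.005). CSLC04, a synthase of the xyloglucan backbone, rose by 0.55 ± 0.07 (adjusted p = 0.0041) and was the only one called of 8 measured cellulose-synthase-like genes. No member of the 14 measured expansins, proteins that loosen walls, passed (median -0.11, from -0.31 to 0.19), nor did any of 6 pectin methylesterases. Among these, XTH32 did not pass in the fit of 12 arrays (adjusted p of 0.32).

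Wall proteins and wall-sensing kinases outside those families were gathered as added groups. FERONIA is a receptor kinase at the cell surface that binds RALF peptides and monitors the wall. FER read 8.62, 8.54 and 8.43 on the 3 water arrays and 9.14, 9.28 and 9.25 on the 3 SA arrays. It rose by 0.69 ± 0.065 (adjusted p = 0.0014). THE1 (THESEUS1), a relative that senses impaired cellulose synthesis, rose by 0.32 ± 0.048 (adjusted p = 0.0077), and the pollen-tube relatives ANX1 and ANX2 had -0.005 (adjusted p = 0.96) and -0.093 (adjusted p = 0.25). RALFL33, a peptide of the RALF family that supplies the ligands of such kinases, fell by 0.40 (adjusted p = 0.011) and was the 1 called of 10 measured RALF-like genes. COB, a GPI-anchored protein needed for oriented cellulose deposition, read 9.82, 9.79 and 9.82 with water and 10.29, 10.39 and 10.27 with SA, a rise of 0.51 ± 0.05 (adjusted p = 0.0017). SKU5, also GPI-anchored and needed for directional growth, rose by 0.52 ± 0.048 (adjusted p = 0.0013), and the 3 measured SKU5-similar genes did not pass. Of 24 measured trichome birefringence-like genes, a family that acetylates wall polysaccharides, 4 rose and 1 fell. TBL45 rose by 0.63 (adjusted p = 0.00059), TBL37 by 0.50 (adjusted p = 0.021) and AT2G31110, which the annotation also calls TBL40, by 0.44 (adjusted p = 0.0022), while TBL26 had -0.79 (adjusted p = 0.031). Expansin-like genes split, EXLA1 at 0.56 (adjusted p = 0.029) and EXLB1 at -0.41 (adjusted p = 0.038). Leaving out 1 of the 6 arrays ended the call of TBL37, TBL26, EXLA1 and EXLB1, with a highest adjusted p of 0.075 to 0.12. In the fit of 12 arrays the adjusted p of THE1, RALFL33, COB, TBL45, TBL26, EXLA1 and EXLB1 rose to 0.07 to 0.55.

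Genes of secretion and the endoplasmic reticulum that were called had small rises, and most of these calls lay in an added group. The exocyst tethers secretory vesicles to the plasma membrane, and KEU (KEULE) binds the SNARE proteins that fuse them. Of 8 measured genes of this added group 4 rose and 0 fell (median 0.20). SEC15B rose by 0.48 ± 0.084 (adjusted p = 0.013), KEU by 0.43 ± 0.059 (adjusted p = 0.0055), SEC6 by 0.28 ± 0.057 (adjusted p = 0.024) and SEC10 by 0.27 ± 0.052 (adjusted p = 0.019). KEU read 7.34, 7.50 and 7.48 on the 3 water arrays and 7.85, 7.83 and 7.92 on the 3 SA arrays. SEC5A, SEC5B, SEC15A and EXO84B did not pass, at 0.081, 0.042, 0.13 and 0.13. Among 4 measured genes of the endoplasmic reticulum and its chaperones, 1 rose: ATERDJ3B, a DnaJ co-chaperone of the lumen, by 0.32 ± 0.068 (adjusted p = 0.029). CRT1b, a calreticulin, had 0.24 (adjusted p = 0.12). IQ-domain proteins, calmodulin-binding scaffolds on microtubules and another added group, held 4 rises and 1 fall among 15 measured (median 0.059), led by IQD22 at 0.61 (adjusted p = 0.0039). IQD24, IQD28 and IQD30 rose by 0.33, 0.31 and 0.28. The call of SEC15B, SEC6, SEC10, ATERDJ3B, IQD28 and IQD30 ended without 1 array or another, at a highest adjusted p of 0.051 to 0.12. The fit of 12 arrays ended the call of KEU, SEC6, SEC10, IQD22, IQD28 and IQD30 (adjusted p of 0.078 to 0.32).

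Genes of autophagy and amino-acid breakdown were among those that rose. ATG8 proteins are ubiquitin-like tags that are joined to the autophagosome membrane, and 9 of their family were measured, of which 2 rose and 1 fell (median 0.21). ATG8E read 7.94, 8.09 and 7.66 on the 3 water arrays and 8.78, 9.05 and 8.69 on the 3 SA arrays. The rise was 0.94 ± 0.13 (adjusted p = 0.0057), 1.92-fold higher. ATG8F rose by 0.54 ± 0.094 (adjusted p = 0.013), ATG8D changed by -0.30 ± 0.071 (adjusted p = 0.039), and the other 6 lay between -0.054 and 0.25. In mitochondria leucine is degraded through isovaleryl-CoA dehydrogenase (IVD) and then the subunits of methylcrotonyl-CoA carboxylase (MCCA and MCCB). All 3 measured genes of this added group rose. IVD read 7.68, 7.75 and 7.60 on the 3 water arrays and 8.53, 8.30 and 8.54 on the 3 SA arrays. IVD rose by 0.78 ± 0.076 (adjusted p = 0.0016), MCCA by 0.54 ± 0.13 (adjusted p = 0.041) and MCCB by 0.37 ± 0.074 (adjusted p = 0.022). MCCA was also the 1 measured gene of the dark and sugar starvation list. With 1 of the 6 arrays left out, ATG8F, ATG8D, MCCA and MCCB no longer passed in at least 1 case (highest adjusted p of 0.055 to 0.13). Fitted with all 12 arrays, ATG8E, ATG8F, ATG8D, IVD, MCCA and MCCB no longer passed, at an adjusted p of 0.051 to 0.37.

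An added group around nitrogen recycling from purines had 2 called genes of 5 measured. ALN, the allantoinase that opens the allantoin ring, read 6.55, 6.79 and 6.72 with water and 7.35, 7.31 and 7.36 with SA and rose by 0.65 ± 0.069 (adjusted p = 0.002). URE, urease, rose by 0.36 ± 0.055 (adjusted p = 0.0082), and its place in the group does not show that it acts in purine breakdown. AAH, TTL and UGLYAH, the other members, had -0.052, -0.043 and 0.0089 and did not pass. AKINBETA1, a regulatory subunit of SnRK1, the kinase that signals energy shortage, rose by 0.78 ± 0.11 (adjusted p = 0.0065), the 1 called of 3 measured subunits. Among these, URE and AKINBETA1 did not pass in the fit of 12 arrays (adjusted p of 0.088 to 0.16).

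Among enzyme families of secondary metabolism, the P450 family 71 held 2 rises in 18 measured genes, CYP71B23 and its neighbour in name CYP71B22, at 0.83 (adjusted p = 0.0095), with a family median of -0.0084. UDP-glycosyltransferases, which attach sugars to hormones and metabolites, split evenly: 4 rose and 4 fell of 51 measured. UGT85A4 rose by 0.70 ± 0.054 (adjusted p = 0.0008) and UGT72E1, a glucosyltransferase of monolignol precursors, by 0.59 ± 0.12 (adjusted p = 0.025). UGT78D2 and UGT78D1, which fell, belong to the flavonoid genes below. Of 22 beta-glucosidases, BGLU16 rose (0.81, adjusted p = 0.0058) and BGLU40 was lower (-0.44, adjusted p = 0.01). In the P450 family 71, the UDP-glycosyltransferases and the beta-glucosidases the share called was near the 11.4 percent of all probe sets. JAL23 was the 1 called of 4 jacalin lectins. JAL23 read 6.55, 6.32 and 6.63 on the 3 water arrays and 7.37, 7.60 and 7.29 on the 3 SA arrays. Its rise was 0.92 ± 0.11 (adjusted p = 0.003). BZIP61, a basic leucine zipper factor, rose by 0.79 (adjusted p = 0.0014), and bZIP44 had -0.41 (adjusted p = 0.014). They were the 2 called of 14 measured by that name, again near the share of all probe sets. The tetraspanin TET10 rose by 0.66 (adjusted p = 0.0035) and TET3 had -0.33 (adjusted p = 0.026), the 2 called of 15 measured. The carboxypeptidase-like SCPL34 rose by 0.52 (adjusted p = 0.008) while SCPL49 had -0.29 (adjusted p = 0.029), the 2 called of 29. Neither share was far above that of all probe sets. In other families with 6 or more measured members, the calls named by the same rule were PRA1.G2, a prenylated Rab acceptor (0.40, adjusted p = 0.0032), VPS24.1 of the endosomal sorting machinery (0.21, adjusted p = 0.037), the subtilase SBT1.3 (-0.29, adjusted p = 0.017), the aldehyde dehydrogenase ALDH3F1 (-0.22, adjusted p = 0.024), the MADS-box gene AGL26 (-0.22, adjusted p = 0.031) and the cyclophilin CYP71 (-0.25, adjusted p = 0.046). Leaving out 1 of the 6 arrays ended the call of UGT72E1, bZIP44, TET3, SCPL49, VPS24.1, SBT1.3, ALDH3F1, AGL26 and CYP71, with a highest adjusted p of 0.056 to 0.13. In the fit of 12 arrays the adjusted p of CYP71B22, UGT85A4, UGT72E1, BGLU40, TET3, SCPL34, SCPL49, PRA1.G2, ALDH3F1, AGL26 and CYP71 rose to 0.091 to 0.43.

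**Figure D2:**
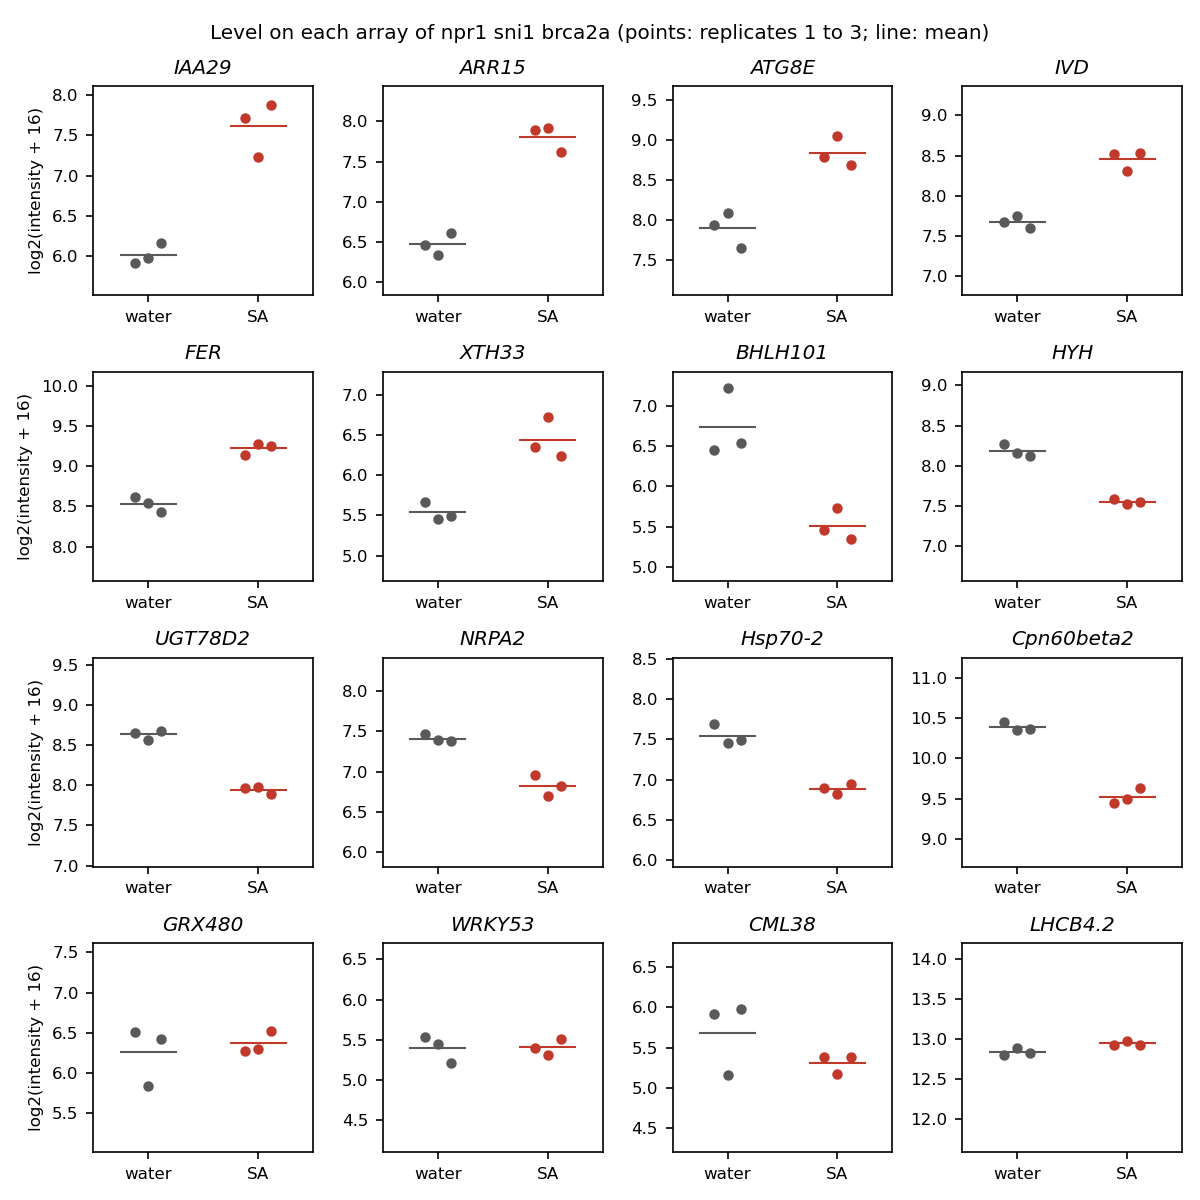
Level of 16 genes on each of the 6 arrays of npr1 sni1 brca2a, as log2(intensity + 16), water in grey and SA in red, with the group mean as a line; every panel spans 2.6 log2 units. The first 12 genes, all of them called, separate the treatments on all arrays, while GRX480, WRKY53 and CML38 overlap and LHCB4.2 shifts by 0.11 without a call.

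Iron genes were lower with SA. All 3 measured members of 27 listed fell, with a median of -1.22 against a background of 5.52 percent lower. Low iron raises a set of bHLH factors that switch on uptake of the metal. BHLH101, one of these factors, read 6.45, 7.22 and 6.54 on the 3 water arrays and 5.45, 5.73 and 5.35 on the 3 SA arrays. The second water array was the highest, and BHLH101 fell by 1.22 (SE 0.21, adjusted p = 0.012). PYE (POPEYE), a regulator of iron distribution in the same response, read 6.78, 6.83 and 6.98 on the 3 water arrays and 6.28, 6.28 and 6.09 on the 3 SA arrays. PYE fell by 0.65 (adjusted p = 0.0034). AT1G47400, the third member of the list, fell by 1.74 (adjusted p = 0.0022), from 8.35, 8.76 and 8.09 to 6.49, 6.96 and 6.53. Upstream factors of the iron response that were called went opposite ways: bHLH34 had -0.69 (adjusted p = 0.003) and bHLH121 0.50 (adjusted p = 0.0023). The related bHLH115 had -0.17 (adjusted p = 0.13) and was not called. In all, 7 bHLH genes were measured by name, 1 higher and 2 lower. The fit of 12 arrays ended the call of bHLH34 and bHLH121 (adjusted p of 0.071 to 0.083).

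Light-signalling genes and part of the clock list were lower. All 3 measured members of the light-signalling list fell (median -0.66). HYH, the homolog of HY5, is a bZIP factor of light signalling. HYH read 8.27, 8.16 and 8.12 on the 3 water arrays and 7.58, 7.53 and 7.56 on the 3 SA arrays. HYH fell by 0.63 (SE 0.055, adjusted p = 0.0011), and the listed loci AT3G52740 and AT3G44450 had -0.78 (adjusted p = 0.00089) and -0.66 (adjusted p = 0.0017). In the clock list 2 of 3 measured genes fell. GI (GIGANTEA), which links the clock to flowering time, had -0.62 (adjusted p = 0.023), AT5G52660 -0.32 (adjusted p = 0.016), and TIC, a further clock gene, -0.17 (adjusted p = 0.22) without a call. All plants were collected at 1 time after treatment, so a shift in phase and a shift in level cannot be told apart. With 1 of the 6 arrays left out, GI and AT5G52660 no longer passed in at least 1 case (highest adjusted p of 0.066 to 0.083). Fitted with all 12 arrays, HYH, AT3G52740, AT3G44450 and GI no longer passed, at an adjusted p of 0.084 to 0.25.

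Nitrogen and transport genes were lower where they were called. In the nitrogen list AT1G25550 (-1.14, adjusted p = 0.0012) and AT1G68670 (-0.56, adjusted p = 0.0062) fell, 2 of 3 measured. AT1G25550 read 8.79, 9.13 and 8.76 on the 3 water arrays and 7.69, 7.79 and 7.79 on the 3 SA arrays. Among 28 measured sugar and nitrate transporters 0 rose and 4 fell (median -0.15). AT1G68570, a member of the nitrate and peptide transporter family also called NPF3.1, had -0.73 (adjusted p = 0.016), and AT3G21670, the nitrate transporter NPF6.4, -0.55 (adjusted p = 0.0066). SWEET13, a sucrose exporter that supplies the phloem, fell from 6.25, 6.15 and 6.08 to 5.71, 5.55 and 5.69, by 0.51 (adjusted p = 0.0044). SWEET6 had -0.20 (adjusted p = 0.044), and the other 12 of 14 SWEET genes did not pass. Starch genes formed an added group of 4, in which both loci that the annotation names PWD were lower. AT5G26570 had -0.58 (adjusted p = 0.0012) and AT4G24450 -0.35 (adjusted p = 0.016). The shared name does not show that both act in starch breakdown. Calls that ended in at least 1 fit of 5 arrays were those of AT1G68570, SWEET6 and AT4G24450, with a highest adjusted p of 0.051 to 0.14. Among these, AT1G68570, AT3G21670, SWEET13, SWEET6 and AT4G24450 did not pass in the fit of 12 arrays (adjusted p of 0.088 to 0.18).

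Flavonoid genes that were called were lower. In the list of 20 genes 4 were measured and 1 fell. UGT78D2 encodes the enzyme that puts glucose on one hydroxyl of flavonols and anthocyanidins. UGT78D2 read 8.65, 8.56 and 8.68 on the 3 water arrays and 7.96, 7.97 and 7.89 on the 3 SA arrays. It fell by 0.69 (SE 0.052, adjusted p = 0.00072). DFR, which makes the precursors of anthocyanidins, had -0.037 (adjusted p = 0.95), UF3GT -0.052 (adjusted p = 0.81) and AT4G14090 -0.27 (adjusted p = 0.36). Outside the list, UGT78D1, which adds rhamnose to flavonols, had -0.51 (adjusted p = 0.0058), and CHIL fell from 9.36, 9.34 and 9.51 to 8.33, 8.16 and 8.27, by 1.15 (adjusted p = 0.00036). In the glucosinolate list made from methionine, AT2G31790 had -0.43 (adjusted p = 0.012), while BCAT4, the aminotransferase of the first step, and AOP3 had 0.26 (adjusted p = 0.19) and 0.03 (adjusted p = 0.8). Leaving out 1 of the 6 arrays ended the call of AT2G31790, with a highest adjusted p of 0.053. In the fit of 12 arrays the adjusted p of UGT78D2, UGT78D1, CHIL and AT2G31790 rose to 0.077 to 0.32.

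Among genes for protein folding outside the secretory pathway, calls were found in both directions, with more falls than rises. Of 5 measured members of the heat-shock list 2 fell, AT5G51440 (-1.14, adjusted p = 0.00089) and AT5G48570 (-1.11, adjusted p = 0.00035), the latter also named ROF2 or FKBP65, a peptidyl-prolyl isomerase induced by heat. ATHSP22.0 and 2 further loci of the list lay between -0.094 and -0.0064 and were not called. An added group of cytosolic chaperones and their helpers held 5 falls and 2 rises in 9 (median -0.48). Hsp70-2 read 7.69, 7.46 and 7.50 on the 3 water arrays and 6.89, 6.83 and 6.95 on the 3 SA arrays. This chaperone fell by 0.66 (adjusted p = 0.0022). Hop3 and Hop2, which link HSP70 to HSP90, had -0.51 (adjusted p = 0.0036) and -0.26 (adjusted p = 0.033), BOB1 had -0.48 (adjusted p = 0.0055), and Hop1 had 0.02 (adjusted p = 0.9). BOB1, Hop2 and Fes1C were singled out after their values were seen and lie outside the 135 named calls. Whether their calls held without 1 array or in the fit of 12 arrays is not given here. Fes1B and Fes1C, HSP70 partners, rose, by 0.53 (adjusted p = 0.015) and 0.43 (adjusted p = 0.049), and Fes1A had -0.51 (adjusted p = 0.068). In the chloroplast, 2 of 3 subunits of the Cpn60 chaperonin in an added group fell. Cpn60beta2 read 10.45, 10.35 and 10.37 on the 3 water arrays and 9.44, 9.49 and 9.63 on the 3 SA arrays. Cpn60beta2 fell by 0.87 (SE 0.063, adjusted p = 0.0006) and Cpn60beta4 by 0.49 (adjusted p = 0.0077). The call of Fes1B ended without 1 array or another, at a highest adjusted p of 0.059. The fit of 12 arrays ended the call of AT5G48570, Hsp70-2, Hop3, Fes1B, Cpn60beta2 and Cpn60beta4 (adjusted p of 0.066 to 0.24).

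Several genes for RNA polymerases and ribosome assembly fell, both described as added groups. Of 12 measured polymerase subunits 0 rose and 5 fell (median -0.19). NRPA1 and NRPA2 are the large subunits of polymerase I, which transcribes the ribosomal RNA precursor. NRPA2 read 7.47, 7.39 and 7.38 on the 3 water arrays and 6.96, 6.70 and 6.82 on the 3 SA arrays. NRPA2 fell by 0.58 (SE 0.073, adjusted p = 0.0039) and NRPA1 by 0.40 (adjusted p = 0.0074). NRPB12, a small subunit, NRPC2 of polymerase III and NRPB7 of polymerase II had -0.38 (adjusted p = 0.0067), -0.37 (adjusted p = 0.029) and -0.32 (adjusted p = 0.024). The remaining 7 lay between -0.22 and -0.016. Of 6 measured genes grouped under ribosome assembly 4 fell. The grouping does not show that RRP41L and SAT32 act in ribosome assembly. YAO, a nucleolar protein of the U3 particle, had -0.50 (adjusted p = 0.0067), IMP4, another factor of that particle, -0.41 (adjusted p = 0.031), RRP41L, an exosome-related protein, -0.41 (adjusted p = 0.0092), and SAT32 -0.63 (adjusted p = 0.035). The 1 cytosolic ribosomal protein gene measured had -0.021 and did not pass. With 1 of the 6 arrays left out, NRPC2, NRPB7, IMP4 and SAT32 no longer passed in at least 1 case (highest adjusted p of 0.084 to 0.11). Fitted with all 12 arrays, NRPB7 and SAT32 no longer passed, at an adjusted p of 0.087 to 0.092.

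Ubiquitin ligases showed calls in both directions. Of 9 measured plant U-box ligases, PUB25 and PUB26 fell and PUB24 rose. PUB25 read 6.72, 6.82 and 6.75 on the 3 water arrays and 6.06, 5.69 and 5.92 on the 3 SA arrays. The change was -0.87 ± 0.094 (adjusted p = 0.0022) for PUB25, -0.70 ± 0.076 (adjusted p = 0.0022) for PUB26 and 0.45 ± 0.09 (adjusted p = 0.021) for PUB24. PUB22 and PUB23 had -0.15 (adjusted p = 0.22) and -0.34 (adjusted p = 0.067) and were not called. The RING-type ligase ATL8 rose by 0.69 (adjusted p = 0.0012), the 1 called of 4. Of 12 conjugating enzymes, UBC19 (0.41, adjusted p = 0.012) and UBC28 (0.33, adjusted p = 0.036) rose. Calls that ended in at least 1 fit of 5 arrays were those of PUB24 and UBC28, with a highest adjusted p of 0.081 to 0.11. Among these, PUB25, PUB26, ATL8 and UBC28 did not pass in the fit of 12 arrays (adjusted p of 0.06 to 0.17).

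The classic SA genes that could be measured did not pass in npr1 sni1 brca2a. Only 3 of the 25 listed had a usable probe set, and the list's median was 0.11. GRX480, a glutaredoxin that binds TGA factors, read 6.52, 5.84 and 6.42 with water and 6.28, 6.30 and 6.53 with SA. WRKY53, a transcription factor induced by SA and in senescence, read 5.53, 5.45 and 5.21 with water and 5.39, 5.31 and 5.51 with SA. In both genes the treatments overlapped, with effects of 0.11 (adjusted p = 0.77) and 0.0089 (adjusted p = 0.97). UGT76B1, a glucosyltransferase that acts on SA, had 0.36 (adjusted p = 0.57). SAG101, a partner of the immune regulator EDS1, had 0.15 (adjusted p = 0.13), and AT5G52810 of the SA-synthesis list 0.37 (adjusted p = 0.068). The 7 measured WRKY factors held no call (median 0.13): ZAP1 was nearest at 0.26 (adjusted p = 0.055), followed by WRKY47 at 0.26 (adjusted p = 0.071), and WRKY6 was lowest at -0.31 (adjusted p = 0.31).

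Other defence and stress families were equally without calls. They were 8 calmodulin-like genes (median -0.052), 14 glutathione transferases (0.0052), 15 defensins (-0.047), 7 peroxidases (-0.033), 5 glutaredoxins (0.11) and 4 jasmonate and ethylene defence genes (-0.093). CML41, a calmodulin-like protein, had the largest effect among them and a wide spread: 7.71, 7.65 and 7.77 with water and 7.20, 5.86 and 7.12 with SA, -0.98 (adjusted p = 0.11). PDF1.2 and PDF1.2b, defensins induced by jasmonate and ethylene, had -0.10 and -0.21. The pattern receptor EFR and the kinase BIK1 had 0.12 (adjusted p = 0.32) and 0.21 (adjusted p = 0.33), and the zinc-finger repressor STZ had -0.52 (adjusted p = 0.12). The cold-regulated genes COR15A, COR15B, COR47 and LTI30 ran from -0.48 to -0.016, none called. A missed threshold with 3 arrays per group does not show that these levels were equal.

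Photosynthesis genes and reference genes also held no call. The 10 nuclear photosynthesis genes ran from -0.21 to 0.16 (median 0.065), with the Calvin-cycle genes RCA and PRK at -0.029 and 0.02. The 69 plastid-encoded genes had a median of -0.084 and a range of -0.39 to 0.28. Among 4 reference genes the effects were -0.14 for GAPC2, -0.064 for PEX4, 0.079 for AT2G28390 and 0.091 for AT4G34270. The 6 histone genes lay between -0.22 and 0.045.

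The size of the SA effect was next compared with that in the double mutant, by the difference between both effects in 1 limma fit of 12 arrays. The difference passed for 442 of all probe sets (1.94 percent), and for 151 of the 2599 that SA changed in npr1 sni1 brca2a. The rises that passed were smaller than in the double in 58 cases and larger in 44, and the falls lay below the double's effect in 48 cases and above it in 1. For the other 2448 no difference was detected. The water group of the double holds an array, its second, that stood apart, and for several genes that SA changed it lay with or beyond the SA arrays. IAA29, for example, read 5.62, 8.49 and 5.78 on the double's water arrays and 7.06, 6.98 and 7.19 on its SA arrays. Without that array 400 of the 2599 passed, with 137 smaller and 93 larger rises, and falls below the double's in 114 cases and above it in 56. The median effect on the 1343 higher probe sets was 0.43 in npr1 sni1 brca2a and 0.24 in the double, or 0.40 in the double without its second water array. For the 1256 lower ones the medians were -0.39, -0.21 and -0.34. The lists were chosen on npr1 sni1 brca2a, and the part of that choice in the smaller medians of the double was not tested.

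**Figure D3:**
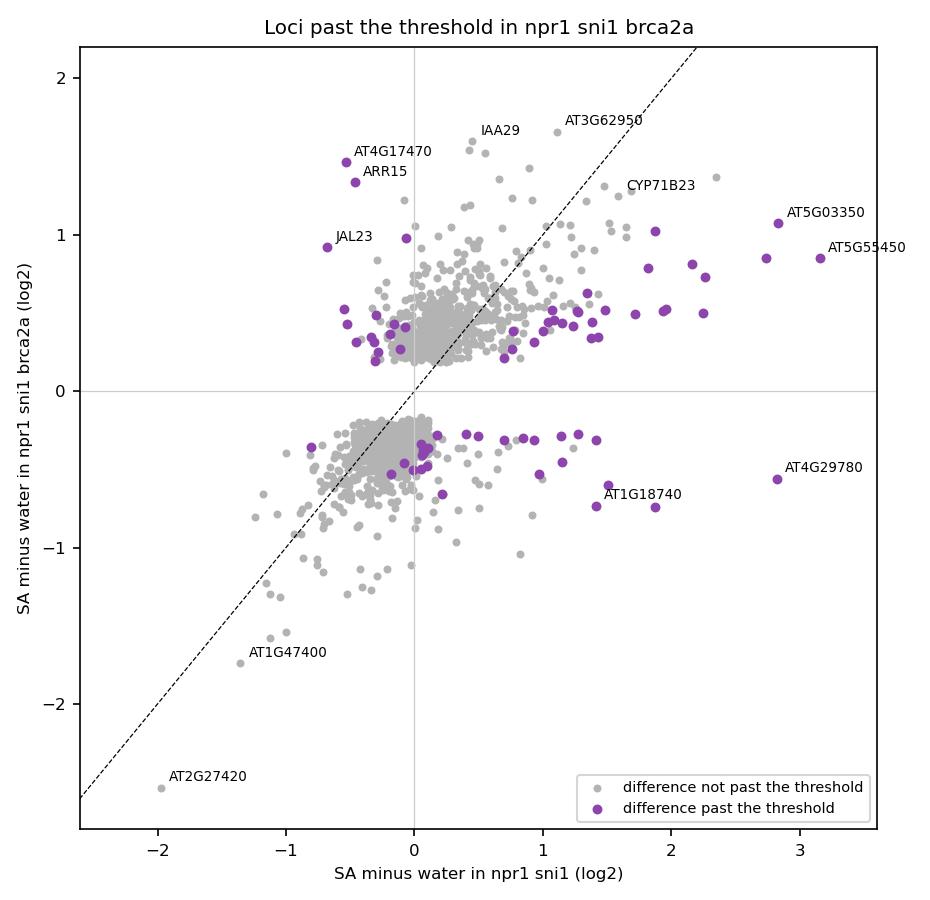
Effect of SA in npr1 sni1 (horizontal) and in npr1 sni1 brca2a (vertical), log2 units, for the 1308 loci called in npr1 sni1 brca2a, each a point; the dashed line marks equal effects. Purple points passed the test of the difference. AT4G29780, AT5G55450 and AT5G03350 lie far to the right of the line, and AT4G17470, ARR15 and JAL23 rose in npr1 sni1 brca2a with a negative effect in npr1 sni1.

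Of the 3 measured SA-response genes, GRX480 and WRKY53 differed between genotypes in their SA effect. GRX480 had an SA effect of 2.46 in the double, where its arrays read 5.62, 5.63 and 5.96 with water and 8.07, 8.15 and 8.38 with SA. The difference from npr1 sni1 brca2a was -2.35 (adjusted p = 0.00051), and -2.30 without the second water array (adjusted p = 0.00044). WRKY53 had 1.93 in the double and a difference of -1.92 (adjusted p = 3.1e-05), or -1.93 (adjusted p = 2.5e-05) without that array. For SAG101 the difference of -0.35 did not pass with all arrays (adjusted p = 0.095) and passed without that one (-0.41, adjusted p = 0.012). That of UGT76B1, -0.53, passed in neither fit (adjusted p = 0.66 and 0.68).

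A set of loci kept a reduced rise. AT5G03350 read 9.93, 9.89 and 10.06 with water and 11.09, 10.93 and 11.08 with SA in npr1 sni1 brca2a, a rise of 1.07 ± 0.068. In the double it read 9.31, 9.16 and 9.51 with water and 12.17, 12.24 and 12.07 with SA, a rise of 2.83. The difference was -1.76 (adjusted p = 4.6e-05). AT5G55450 (0.85 against 3.16), AT5G52750 (0.85 against 2.73) and AT3G48650 (0.50 against 2.24) followed the same order, with differences of -2.31, -1.88 and -1.74. ATERDJ3B, the co-chaperone above, rose by 0.32 against 0.93 (difference -0.61, adjusted p = 0.004). Without the double's second water array all 5 differences still passed. Leaving out 1 of the 6 arrays ended the call of AT5G52750 and AT3G48650, with a highest adjusted p of 0.058 to 0.072. In the fit of 12 arrays the adjusted p of AT5G55450 and AT3G48650 rose to 0.061 to 0.093.

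At 4 loci the direction turned: SA lowered them in npr1 sni1 brca2a and the effect in the double was positive. AT4G29780 read 6.68, 6.14 and 6.61 with water and 5.87, 5.89 and 6.0 with SA, against 6.73, 5.78 and 6.87 with water and 9.28, 9.18 and 9.38 with SA in the double. The effects were -0.56 and 2.82, the largest difference named (-3.38, adjusted p = 0.00051). AT1G18740 had -0.73 against 1.41, AT1G74450 -0.60 against 1.51, and AT2G27080 -0.74 against 1.87. The differences of these were -2.14, -2.11 and -2.61, and -1.76, -1.85 and -2.02 without the second water array, all past the threshold. That of AT2G27080 no longer passed in 10 other settings (highest adjusted p = 0.12). The call of AT4G29780 ended without 1 array or another, at a highest adjusted p of 0.13. The fit of 12 arrays ended the call of AT4G29780, AT2G27080, AT1G18740 and AT1G74450 (adjusted p of 0.081 to 0.3).

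The opposite pattern, a rise with SA in npr1 sni1 brca2a beside a negative effect in the double, had its largest differences at ARR15, JAL23 and AT4G17470. ARR15 read 6.95, 7.41 and 6.94 with water and 6.63, 6.53 and 6.75 with SA in the double, an effect of -0.46, and the difference was 1.80 (adjusted p = 0.00057). JAL23 read 6.42, 6.33 and 6.27 with water and 5.74, 5.58 and 5.66 with SA there, an effect of -0.68 and a difference of 1.60 (adjusted p = 0.00016). AT4G17470 had 1.47 against -0.54 (difference 2.0, adjusted p = 0.0044). Its water level in npr1 sni1 brca2a, 7.36, 6.88 and 7.23, overlapped that in the double (6.18, 6.99 and 6.29) only through the double's second array. Without the second water array the effects of the double were -0.31, -0.69 and -0.28, and the differences 1.65, 1.60 and 1.75 passed. A fall in the double was itself called for JAL23 (adjusted p = 0.0014, and 0.0012 without that array) and not for ARR15 (0.066 and 0.065) or AT4G17470 (0.17 and 0.24). Smaller differences of this sign were those of AT1G30250 (1.07), AT2G43530 (1.05), AT5G44050 (0.96), AT5G39080 (0.79) and AT1G21440 (0.76). These loci too had negative effects in the double. Without its second water array that fall was called for AT1G21440 (-0.58, adjusted p = 0.00077), AT1G30250 (-0.63, adjusted p = 0.011) and AT5G44050 (-0.41, adjusted p = 0.041). It was not called for AT5G39080 (adjusted p = 0.097) or AT2G43530 (adjusted p = 0.68). AT2G43530 rose by 0.98 in npr1 sni1 brca2a against -0.067 in the double, and AT1G21440 by 0.31 against -0.45. The difference of AT1G21440 no longer passed in 12 other settings, that of AT5G44050 in 7 and that of AT1G30250 in 4. With the replicate number as a block the differences of AT4G17470 and AT2G43530 did not pass either (adjusted p = 0.05 and 0.075). With 1 of the 6 arrays left out, AT1G30250, AT5G44050 and AT1G21440 no longer passed in at least 1 case (highest adjusted p of 0.067 to 0.099). Fitted with all 12 arrays, AT1G30250, AT5G44050 and AT1G21440 no longer passed, at an adjusted p of 0.061 to 0.14.

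**Figure D4:**
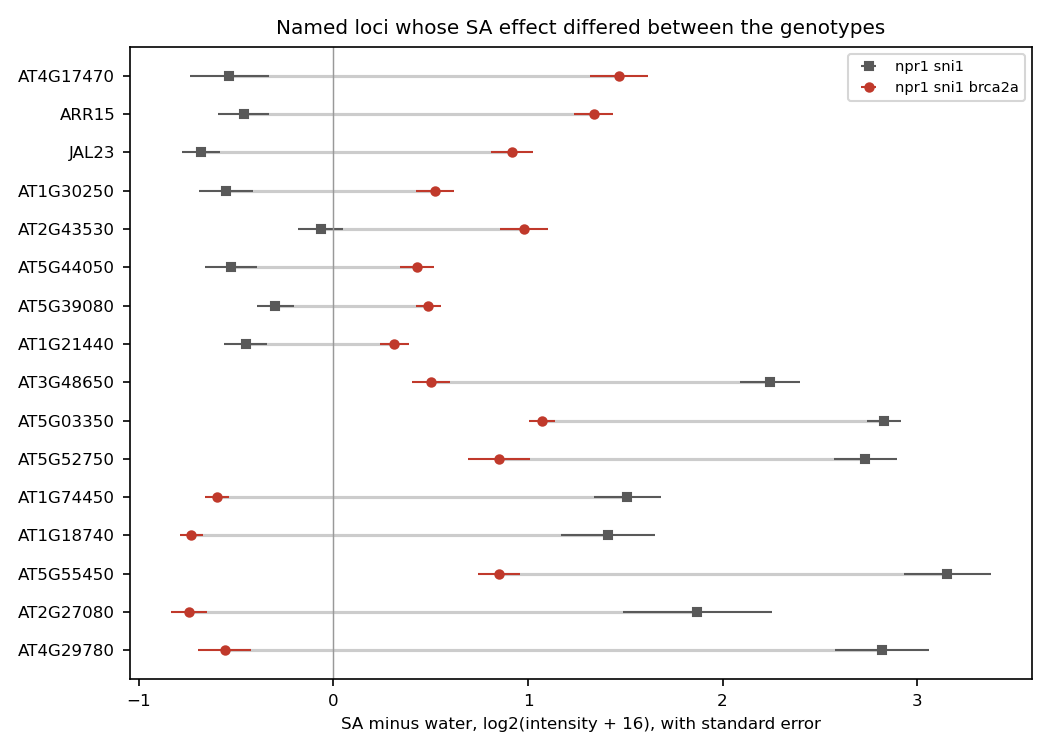
Effect of SA with its standard error in npr1 sni1 (grey squares) and npr1 sni1 brca2a (red circles) for the 16 named loci whose difference passed, ordered by the difference, log2(intensity + 16). The upper 8 lie further right in npr1 sni1 brca2a, the lower 8 in npr1 sni1, from AT4G17470 (2.0) to AT4G29780 (-3.38).

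Some group members that were not called in npr1 sni1 brca2a rose with SA in the double, and their difference passed. Over the 502 measured loci of the gene groups the difference passed for 18 with all 12 arrays, 4 of them called in npr1 sni1 brca2a (ARR15, JAL23, ATERDJ3B and RRP41L) and 14 not, against 1.94 percent of all probe sets. All 18 passed again without the second water array of the double, when the count was 37. The 14, named here because they passed, include GRX480 and WRKY53. The calmodulin-like gene CML38 had -0.37 against 2.89 in the double (difference -3.26, adjusted p = 0.00012), and CML37 had -0.04 against 0.56 (difference -0.60, adjusted p = 0.00047). STZ, the zinc-finger repressor, had -0.52 against 2.19, a difference of -2.71 (adjusted p = 0.00018). Of the U-box ligases, PUB23 had -0.34 against 2.06 and PUB22 -0.15 against 0.60, with differences of -2.40 (adjusted p = 0.00019) and -0.75 (adjusted p = 0.013). The wall genes XTH18 and XTH19 had 0.16 against 2.42 and -0.29 against 0.65, with differences of -2.26 (adjusted p = 0.00051) and -0.94 (adjusted p = 0.01). WRKY22, a transcription factor of pattern-triggered immunity, and AT5G52810 had differences of -0.89 (adjusted p = 0.00085) and -0.71 (adjusted p = 0.019). The difference was positive for BCAT4 (0.84), GSTU20, a glutathione transferase (0.64), and TBL25 (0.62), whose effects in the double were -0.58, -0.46 and -0.45.

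Of the 135 called genes named, the difference passed for 19 with all 12 arrays and for 33 without the second water array of the double, the same 19 among them. No difference was detected in either fit for FER, which had 0.69 against 0.46 in the double (0.69 without that array), XTH33 at 0.90 against 0.90 (0.97), ATG8E at 0.94 against 0.46 (0.88) and IVD at 0.78 against 0.47 (0.91). Among the falls the same held for BHLH101, at -1.22 against -1.16 (-0.77), UGT78D2, at -0.69 against -0.51 (-0.87), and Cpn60beta2, at -0.87 against -0.45 (-0.88). RRP41L and UBC19 differed in both fits, by -0.47 (adjusted p = 0.015) and 0.48 (adjusted p = 0.031) with all arrays.

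The 14 differences that passed only without that array went both ways, and brackets give each difference with its adjusted p. AT3G44450, a light-signalling locus, had -0.66 against -1.66 in the double (1.0, 0.00049), TBL26 had -0.79 against -1.88 (1.09, 0.018), and smaller falls than in the double were also those of UGT78D1 (0.47, 0.02) and AT3G48460 (0.42, 0.043). Falls were deeper in npr1 sni1 brca2a for Hsp70-2 (-0.57, 0.0092) and for the heat-shock loci AT5G51440 (-0.55, 0.032) and AT5G48570 (-0.45, 0.033), and for AT5G05250 (-0.59, 0.021). Rises were smaller for AT1G35710 (-1.17, 0.0049), CYP71B23 (-0.70, 0.045), AT3G04210 (-0.66, 0.013) and TBL45 (-0.26, 0.029). They were larger for AT3G28220 (1.37, 0.028) and COB (0.36, 0.028). With all 12 arrays the adjusted p of these 14 lay between 0.052 and 0.96.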

How the data were processed

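ATH1 arrays of 3 RNA samples from water-treated and 3 from SA-treated npr1 sni1 brca2a plants were compared, and the 6 arrays of npr1 sni1 entered only the comparison of SA effects. The authors deposited linear probe set intensities, never below 0, with array medians alike, so the arrays had been scaled to each other. The submitters' processing notes list PLIER without a version, and nothing used here states its settings. A second deposited table gives these arrays as log2 values with a constant removed per probe set (agreement to within 2.3e-06), and served as an alternative. The number of arrays limits the precision.

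Intensities were taken as log2(intensity + 16), with no filter on dim probe sets. Of 22810 probe sets, 64 controls were left out. SA was set against water with limma 3.58.1 (lmFit and eBayes, R 4.3.3) on the 6 arrays, and the difference between genotypes in 1 fit of 12 arrays. Tests were two-sided, with Benjamini-Hochberg adjustment over 22746 probe sets and a threshold of 0.05. The method was tested on simulated data.

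The platform table named 1 gene for 13513 probe sets and several for 503, and 8730 were not listed. The named probe sets stand for 13333 loci, of which 1535 have a symbol in the RefSeq annotation of TAIR10.1, and a gene is represented by its brightest probe set. The named genes are, among those past the threshold without overlap, the 15 largest rises and 15 largest falls, up to 4 per group by size, and the 8 largest differences between genotypes in each direction, with GRX480, WRKY53 and SAG101 in any case. Members and lists were chosen with earlier results of these data known. The same-numbered arrays did not deviate together (correlations of -0.33 to -0.084), so the replicate number was not taken as a pairing. The ssn2 arrays were not used here.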

Additional observations from a re-analysis of the deposited data

Results flagged for a closer look

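The SA effect differed between npr1 sni1 brca2a and npr1 sni1, by the limma test of the difference, for 16 named loci. The difference (npr1 sni1 brca2a minus npr1 sni1, log2 units) was positive for AT4G17470 (2.0), ARR15 (1.80), JAL23 (1.60), AT1G30250 (1.07), AT2G43530 (1.05), AT5G44050 (0.96), AT5G39080 (0.79) and AT1G21440 (0.76). It was negative for AT4G29780 (-3.38), AT2G27080 (-2.61), AT5G55450 (-2.31), AT1G18740 (-2.14), AT1G74450 (-2.11), AT5G52750 (-1.88), AT5G03350 (-1.76) and AT3G48650 (-1.74). No outlier test was run on single values, since each group holds 3 arrays. Without the second water array of npr1 sni1 all 16 differences passed again.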

How the results depend on the processing

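In none of the alternatives run did a named call turn its sign. SA changed 2599 probe sets, 93 of them brightest probe sets of the 502 group members. When all 12 arrays shared the spread these became 1057 and 34; with 11 arrays, leaving out the second water array of npr1 sni1 (an alternative chosen after seeing the data), they became 3495 and 111. Leaving out 1 array gave 1382 to 2225 probe sets and 63 to 88 members. The lowest counts came without SA array 3 (1382) and SA array 1 (1521), and the cause was not tested. The difference between genotypes passed for 442 probe sets, and for 329 to 1065 with 1 array left out, the highest without the second water array of npr1 sni1. With the replicate number as a block the counts were 2206, 87 and 304, and 19 of 135 named calls ended, AT4G17470 and AT2G43530 among the differences no longer passing. Median or quantile scaling, offsets of 1 and 64, moderation with a trend and the second deposited table gave 2271 to 2862 probe sets. The brighter of the probe sets by median, fitted alone, gave 2625 of 11373 tested. Of the 135 named calls, 0 ended with median scaling, 1 with quantile scaling, 9 and 17 with the other offsets, 8 with a trend and 12 with that table. No detection calls were used, so a level at background cannot be told apart from a low one.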
